A study of Mus musculus with 4 samples.

Results

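The genes described here carry the insulin-like growth factor (IGF) signal from the outside of the cell to its first docking proteins. They are 4 IGF binding proteins (Igfbp2, Igfbp3, Igfbp4 and Igfbp5), the receptor genes Igf1r and Insr, and the insulin receptor substrate genes Irs1, Irs2 and Irs4. They were picked by symbol, 9 of the 55401 genes in the count table, with earlier results of the same comparison known. Their changes are therefore given as a description. Their calls, intervals and adjusted p-values come from the fit to all tested genes and are not read as a test of the members. RNA was sequenced from mouse embryonic stem cells (mESCs), cells of the early embryo that can form all its tissues. Both groups were ZBTB21-degron mESCs, in which both alleles of Zbtb21 were fused to an auxin-inducible degron and GFP in a line that carries OsTIR1, the adaptor through which auxin marks the tagged protein for destruction. The study's methods describe homogeneous clones, and the sources do not say how many clones these libraries came from. Both groups grew in fetal bovine serum with 1000 U/ml LIF, 3 µM CHIR99021 (a GSK3 inhibitor) and 0.5 µM PD0325901 (a MEK inhibitor). The untreated group had 2 libraries. The degron group had 2 libraries from cells that received 1 µg/ml doxycycline over 24 h, followed by the auxin IAA (500 µM) over another 24 h. No library with doxycycline and IAA but an untagged ZBTB21 was analysed here, so loss of ZBTB21 and the added agents cannot be told apart.

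IGF1 and IGF2 are secreted growth factors that act through IGF1R, a receptor tyrosine kinase, and IGF2 also acts through the closely related insulin receptor. In the fluid around cells the IGFs are held by IGF binding proteins, which do not bind insulin with comparable strength and can keep the ligands from the receptor or deliver them to it. Once active, the receptors phosphorylate the IRS proteins on tyrosine, and these recruit PI3K, which activates AKT, which in turn holds FOXO transcription factors out of the nucleus. In pluripotent cells this pathway supports survival and growth.

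The promoters of the 3 binding protein genes that fell are shown first, because these genes moved in the same direction. Each line gives the 250 bases before the RefSeq start site (GRCm38.p6, the mm10 assembly), 5′ to 3′ on the gene's strand. Capitals mark ACGTG and GCGTG, on either strand, the core letters of sites bound by hypoxia-inducible and related bHLH factors.
Igfbp2, chr1:72824230-72824479, plus strand: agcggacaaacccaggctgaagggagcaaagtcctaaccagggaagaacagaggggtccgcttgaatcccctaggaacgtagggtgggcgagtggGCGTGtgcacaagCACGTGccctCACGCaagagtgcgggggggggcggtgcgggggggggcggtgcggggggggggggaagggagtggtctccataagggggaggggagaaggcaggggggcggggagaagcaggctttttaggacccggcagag
Igfbp4, chr11:99040994-99041243, plus strand: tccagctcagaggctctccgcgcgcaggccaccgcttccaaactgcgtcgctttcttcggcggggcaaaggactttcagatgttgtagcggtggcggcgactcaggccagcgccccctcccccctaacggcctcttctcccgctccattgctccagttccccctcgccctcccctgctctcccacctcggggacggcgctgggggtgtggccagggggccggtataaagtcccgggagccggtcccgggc
Igfbp5, chr1:72874866-72875115, minus strand: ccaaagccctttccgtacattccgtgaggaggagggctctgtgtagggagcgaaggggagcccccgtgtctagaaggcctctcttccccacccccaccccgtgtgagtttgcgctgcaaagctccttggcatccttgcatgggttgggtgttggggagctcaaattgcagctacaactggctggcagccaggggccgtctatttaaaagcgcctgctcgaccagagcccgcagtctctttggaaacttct
The Igfbp2 window held 2 matches to ACGTG, which are both strands of 1 CACGTG, and 2 matches to GCGTG. The Igfbp4 and Igfbp5 windows held none of these, nor GTAAACA (the FOXO element) or TGATGCA (part of the composite C/EBP-ATF element), on either strand. Their GC content was 67.2% for Igfbp2, 69.2% for Igfbp4 and 58.8% for Igfbp5, against a median of 52.4% over 32851 promoters of the same length. No match was common to the 3 windows, and a match or its absence in a window is only a description of these letters.

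Igfbp2 had the highest level per kilobase of the 9 genes and was 1.91-fold lower in degron cells. Igfbp4 and Igfbp5 fell more steeply, and Igfbp3 did not pass the test. Of the 8 members that passed the low-count filter, 3 were lower (Igfbp2, Igfbp4 and Igfbp5) and 2 were higher (Insr and Irs2) in degron cells by edgeR's quasi-likelihood test with Benjamini-Hochberg adjustment over all 13916 tested genes. Over all of these genes 43.8% were called, 22.2% higher and 21.6% lower. The median log2 fold change was 0.18 over the 8 members and 0.01 over all tested genes. The groups did not overlap in 7 of the 8 members and in 70.6% of all tested genes. DESeq2, the alternative tool, called 22% of the genes to which it gave an adjusted p, and of the members it called Igfbp2, Igfbp4 and Igfbp5. A fall of 2-fold or more with a call, as in Igfbp4 and Igfbp5, was seen in 2.84% of all tested genes. Igfbp5, at 3 and 4 counts in the degron libraries, passed the low-count filter through the untreated libraries alone. Since the members were chosen with this contrast known, nothing is read from these numbers of calls or shares. In bulk RNA, fewer cells of a type and less RNA per cell cannot be told apart.

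**Figure D1:**
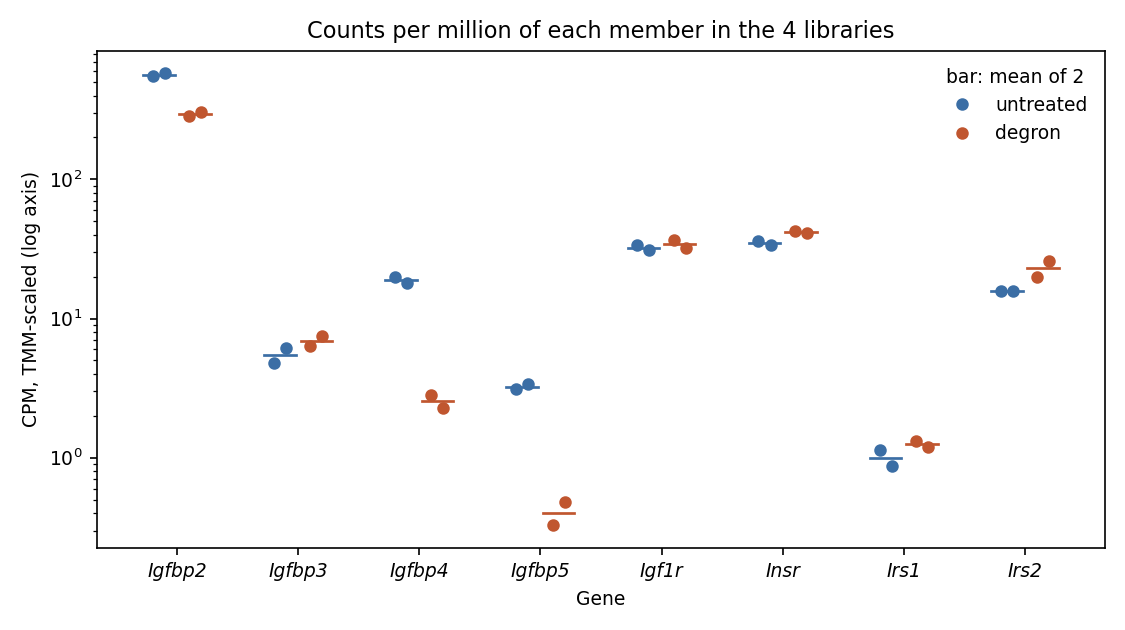
CPM (TMM-scaled, log axis) of 8 members in each library, with untreated libraries in blue, degron libraries in orange, and a short bar at the mean of 2. The groups lie apart for Igfbp2, Igfbp4 and Igfbp5 (degron lower) and for Igfbp3, Insr, Irs1 and Irs2 (degron higher), and overlap for Igf1r. Irs1 rests on 8 to 12 counts per library, and in 70.6% of all tested genes the groups did not overlap. Irs4, with 1 count in all, is not drawn.

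Igfbp2 (ENSMUSG00000039323.18, chromosome 1, 72824503 to 72852474, plus strand) encodes a secreted binding protein with an RGD sequence that can bind integrins. Untreated libraries held 5825 and 5325 counts of it and degron libraries 2627 and 2544. Per 1000000 counts of the TMM-scaled library (CPM), these were 551 and 577 against 287 and 304. Both degron libraries were far below both untreated ones. The log2 fold change was -0.94 ± 0.06 (SE), a level 1.91-fold lower.

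Igfbp4 (ENSMUSG00000017493.12, chromosome 11, 99041244 to 99054392, plus strand) encodes a binding protein known mostly as an inhibitor of IGF action, which the protease PAPP-A cleaves. Its counts were 209 and 167 without treatment (19.8 and 18.1 CPM) and 26 and 19 in degron cells (2.84 and 2.27 CPM). The groups were far apart, and the log2 fold change was -2.88 ± 0.19 (SE), 7.37-fold lower, and the ratio of summed counts was 7.41-fold lower with an exact 95% interval of 5.43 to 10.3, which covers counting error only.

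Igfbp5 (ENSMUSG00000026185.8, chromosome 1, 72857932 to 72874884, minus strand) encodes a binding protein that also attaches to the extracellular matrix. It was a rare transcript, with 33 and 31 counts without treatment (3.12 and 3.36 CPM) and 3 and 4 counts in degron cells (0.327 and 0.478 CPM). Its log2 fold change of -2.98 ± 0.45 (SE) differed from that of Igfbp4 by less than its SE. Which of the 2 is larger in size depends on the setting: Igfbp4 is past Igfbp5 without degron replicate 1 (-3.05 against -2.72), without untreated replicate 2 (-2.94 against -2.93) and by limma-voom (-2.869 against -2.865). The ratio of summed counts was 8.10-fold lower, and its exact 95% counting interval ran from 3.71 to 20.97.

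Igfbp3 (ENSMUSG00000020427.11, chromosome 11, 7206086 to 7213923, minus strand) encodes the main carrier of IGFs in blood. Counts were 51 and 57 without treatment (4.83 and 6.18 CPM) and 58 and 63 in degron cells (6.33 and 7.52 CPM). Both degron libraries were higher, but the gap between the nearest libraries of the 2 groups was smaller than the gap between the untreated ones. A log2 fold change of 0.34 ± 0.21 (SE) was not called, and its 95% interval of -0.09 to 0.76 left room for a small fall or a rise.

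Because levels of different genes can be set side by side only per length, CPM was divided by exonic length in kilobases. Igfbp2 made up 97.9% and 97.9% of the summed level of the 4 binding protein genes in the untreated libraries and 98.3% and 98.2% in the degron libraries. The sum itself was 305 and 319 CPM per kilobase in untreated cells and 158 and 167 in degron cells, so it followed Igfbp2. Among the rest the order changed. Igfbp4 stood above Igfbp3 in both untreated libraries (1.47% and 1.28% against 0.506% and 0.619% of the sum) and below it in both degron libraries (0.407% and 0.307% against 1.28% and 1.44%). Igfbp5 was the lowest of the 4 in every library.

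The falling genes share a place in the genome in part. Igfbp2 and Igfbp5 lie next to each other on chromosome 1, with their 3′ ends facing across 5457 bases, and Igfbp1 and Igfbp3 form a pair of the same layout on chromosome 11 with 3539 bases between them. Of the first pair both genes fell. In the second pair Igfbp1 had 0 counts in all 4 libraries and Igfbp3 was not called. Igfbp4 is on chromosome 11 as well, far from that pair.

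Markers of other cell types that could bring in IGF binding proteins were measured in the same libraries. Of 12 fibroblast markers 6 passed the low-count filter. Thy1 (-1.75), Fbln2 (-2.19) and Mmp2 (-1.62) were lower in degron cells, with these log2 fold changes, and Pdgfrb was higher (0.72). Fbln2 had 19 and 18 counts in untreated and 4 and 3 in degron libraries. It passed the low-count filter through the untreated libraries alone. Col5a1 (17.8 and 14.7 against 15.8 and 16.1 CPM), the marker of this list with the most counts, and Col1a1 (8 to 14 counts) were not called. Dcn, Lum, Postn and Twist2 had 0 counts in all 4 libraries, Col3a1 had 1 in all and Col1a2 had 3 or fewer in each. The summed level of the list was 47.9 and 44.7 CPM in untreated and 38.0 and 38.5 CPM in degron libraries. Summed levels in this paragraph were scaled by library totals alone, whereas the CPM of single genes were TMM-scaled. Whether any fibroblasts were present and added to the Igfbp values was not tested. The 10 embryonic stem cell markers moved in both directions, 3 higher (among them Klf4, 0.72) and 4 lower (among them Utf1, -1.43, and Tdgf1, -0.83), with a summed level of 6280 and 6356 CPM against 6216 and 6217 CPM. These counts stand beside 43.8% of all tested genes called. Of the other lists, summed over all listed genes, primitive endoderm (15 genes, 9 tested, 3 higher and 2 lower) went from 784 and 764 to 926 and 941 CPM, of which Sparc alone was 632 and 637 against 759 and 784 CPM, neural (10 genes, 5 tested, 0 higher and 3 lower) from 190 and 184 to 156 and 157 CPM, trophoblast (10 genes, 7 tested, 2 higher and 1 lower) from 171 and 163 to 169 and 173 CPM, and mesendoderm (7 genes, 3 tested, 0 higher and 0 lower) from 17.7 and 18.6 to 18.1 and 15.8 CPM.

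**Figure D2:**
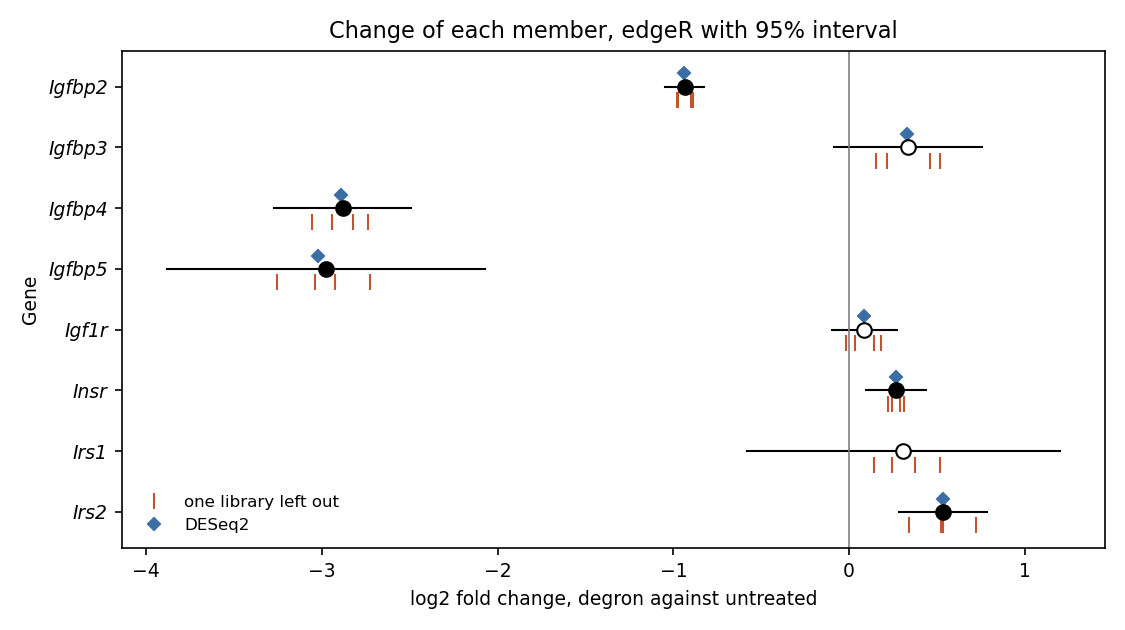
Log2 fold change of each member, degron against untreated, by edgeR (circle, filled where called) with its 95% interval (line). Diamonds give DESeq2's value where it gave an adjusted p, and ticks the value with 1 library left out. Igfbp2, Igfbp4 and Igfbp5 lie left of 0 in every setting drawn, and Insr and Irs2 right of it.

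The receptor genes moved little. Insr (ENSMUSG00000005534.10, chromosome 8, 3122061 to 3279617, minus strand), which encodes the insulin receptor, stood at 36.2 and 33.7 CPM without treatment (382 and 311 counts) and at 42.8 and 41.3 CPM in degron cells (392 and 346 counts). Both degron libraries were above both untreated ones. Its log2 fold change of 0.27 ± 0.09 (SE), 1.20-fold higher, was called by edgeR, but not by DESeq2 (0.26) and not without untreated replicate 2 (0.22) or without degron replicate 1 (0.24).

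Igf1r (ENSMUSG00000005533.10, chromosome 7, 67952827 to 68233668, plus strand), which encodes the receptor of IGF1 and IGF2, stood at 33.6 and 30.9 CPM without treatment (355 and 285 counts) and at 36.5 and 31.9 CPM in degron cells (335 and 267 counts). The groups overlapped. A log2 fold change of 0.09 ± 0.09 (SE) was not called, and its 95% interval reached from -0.10 to 0.27. Without degron replicate 1 the sign changed (-0.017). The ratio of Igf1r to Insr per kilobase, which does not depend on the scaling of libraries, was 0.761 and 0.750 in the untreated and 0.700 and 0.632 in the degron libraries, lower in both degron libraries than in either untreated one. No error was computed for this ratio, and whether it differed between the groups was not tested.

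Among the 3 IRS genes Irs2 had the highest level per kilobase. Irs2 (ENSMUSG00000038894.7, chromosome 8, 10984681 to 11008458, minus strand) had 167 and 146 counts in untreated and 183 and 218 counts in degron libraries, or 15.8 and 15.8 CPM against 20.0 and 26.0 CPM. The untreated libraries were nearly equal, whereas the degron libraries differed from each other by more than the nearer of them differed from the untreated ones. The log2 fold change was 0.53 ± 0.12 (SE), 1.45-fold higher, and called by edgeR. The call rested in part on degron replicate 2: without it the value was 0.34 and not called, and DESeq2 (0.54) did not call it either.

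Irs1 (ENSMUSG00000055980.2, chromosome 1, 82233101 to 82291416, minus strand) was near the limit of measurement, with 12 and 8 counts in untreated and 12 and 10 counts in degron libraries (1.14 and 0.867 against 1.31 and 1.19 CPM). Its log2 fold change of 0.31 ± 0.45 (SE) was not called, and the 95% interval of -0.58 to 1.20 covers both a fall and a rise. Irs1 shares 2822 of its 9144 exonic bases with Gm9747 on the opposite strand, which was counted at 0 in every library, so its level is uncertain. Irs4 (ENSMUSG00000054667.7, chromosome X, 141710998 to 141725263, minus strand) had 0 and 1 counts in the untreated and 0 and 0 counts in the degron libraries and did not enter the test. A count of 0 allows up to 3 counts, which is 0.284 to 0.358 CPM in these libraries. Irs2 stood 20.1-fold and 26.4-fold above Irs1 per kilobase in the untreated libraries and 22.1-fold and 31.5-fold above it in the degron libraries, so the ratios of the groups overlapped.

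The promoters of the 3 IRS genes each hold CACGTG, noticed after the sequences were read. In the windows below, from GRCm38.p6 and 5′ to 3′ on the gene's strand, capitals mark this CACGTG, a palindrome known as an E-box, and the single CACGTG of the Igfbp2 window is set beside them.
Irs1, chr1:82291529-82291574, minus strand: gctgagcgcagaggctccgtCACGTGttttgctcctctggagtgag
Irs2, chr8:11008948-11008993, minus strand: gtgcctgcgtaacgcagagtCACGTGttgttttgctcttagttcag
Irs4, chrX:141725346-141725391, minus strand: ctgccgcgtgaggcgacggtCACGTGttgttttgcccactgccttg
Igfbp2, chr1:72824318-72824363, plus strand: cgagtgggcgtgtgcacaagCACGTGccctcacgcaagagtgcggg
The E-box begins 115 bases before the start site in Irs1, 44 in Irs2, 154 in Irs4 and 142 in Igfbp2. Irs2 and Irs4 share a run of 17 bases around it, gtCACGTGttgttttgc, which is in 2 of 32851 promoters of this length, those of these 2 genes. CACGTG was in 4 of the 8 member promoters matched and in 6.02% of all promoters. ACGTG, which CACGTG contains on both strands, was in the same 4 windows and in 16.6% of all. GCGTG was in 6 of the 8 (28.2% of all), GTAAACA in 0 (3.17% of all) and TGATGCA in 0 (2.68% of all). The E-box and both sets of core letters each contain a CpG, cytosine followed by guanine. The matched member windows held 10 (Igfbp5) to 42 (Igf1r) CpG, against a median of 6 over all promoters. Their GC content was 58.8% (Igfbp5) to 77.6% (Igf1r), against a median of 52.4%. Whether the motif shares differ from those of promoters with similar CpG content was not tested. Insr is named only. The RefSeq start of Irs2 lies 471 bases from the GENCODE gene start, and that of Igf1r, whose window holds GCGTG, 570 bases. Irs2, which rose, thus shares this run with Irs4, of which 1 count was seen.

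**Figure D3:**
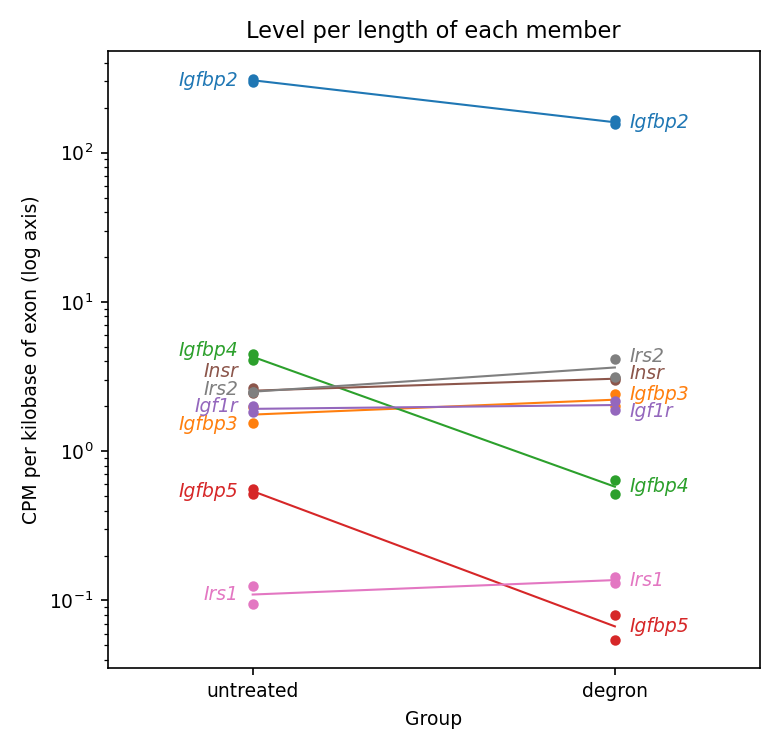
CPM per kilobase of exon (log axis) of 8 members in untreated and degron cells, points for libraries and lines between group means, with labels moved apart for legibility. Igfbp2 is highest in both groups (306 and 160), while Igfbp4 goes from place 2 to place 6 and Igfbp5 from place 7 to place 8.

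In untreated cells the order of the levels per kilobase was Igfbp2 (306 ± 9.85, SD, n = 2), Igfbp4 (4.29 ± 0.27), Insr (2.54 ± 0.13), Irs2 (2.50 ± 0.0017), Igf1r (1.92 ± 0.11), Igfbp3 (1.76 ± 0.31), Igfbp5 (0.540 ± 0.028), Irs1 (0.110 ± 0.021) and Irs4. Insr and Irs2 did not differ beyond their spread, nor did Igf1r and Igfbp3. In degron cells the order was Igfbp2 (160 ± 6.59), Irs2 (3.64 ± 0.68), Insr (3.06 ± 0.07), Igfbp3 (2.21 ± 0.27), Igf1r (2.04 ± 0.20), Igfbp4 (0.578 ± 0.091), Irs1 (0.137 ± 0.0089), Igfbp5 (0.0670 ± 0.018) and Irs4. There Irs2 and Insr lay within the spread of Irs2, and Igfbp3 and Igf1r overlapped. The order of Insr, Irs2, Igf1r and Igfbp3 depends on which length a gene is given. Igfbp2 was above 99.2% of all tested genes per kilobase in untreated and above 98.3% in degron cells, and Igfbp4 went from the 42.4th to the 9.04th percentile.

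The remaining genes of the pathway were read from a list arranged by role. Of 46 genes 34 passed the low-count filter, and 11 were higher and 6 lower in degron cells by edgeR, with a median log2 fold change of 0.08. Beside this, 43.8% of all tested genes were called. The ligands were all but absent. Igf1 had 1 count and Igf2 had 2 counts over the 4 libraries together, and Ins1 and Ins2 had 0. Igf2 shares 3596 of 5723 exonic bases with Gm49394 on the same strand, so its count is uncertain.

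Further proteins that hold or release IGFs moved in both directions. Stc2, an inhibitor of PAPP-A, rose from 17.3 and 16.5 to 30.7 and 39.9 CPM (1.05 ± 0.11 on the log2 scale, SE, edgeR adjusted p = 1.05e-12). Igfals, the acid-labile subunit that joins IGFBP3 and IGFs in blood, rose from 8.24 and 7.26 to 13.2 and 12.8 CPM (0.74 ± 0.16, edgeR adjusted p = 0.000122). Igfbpl1, a protein related to the binding proteins, fell from 3.69 and 4.01 to 1.31 and 1.19 CPM (-1.61 ± 0.34, edgeR adjusted p = 5.45e-05). Igfbp7 (-0.13) and Htra1 (0.47), a protease that can cleave binding proteins, were not called. Pappa, the protease that Stc2 inhibits, had 0 counts in every library, Pappa2 had 1 in all, Igfbp6 had 9, 1, 4 and 6 and Stc1 had 4, 1, 0 and 0.

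Igf2r, which takes IGF2 up for degradation and carries lysosomal enzymes, rose from 123 and 112 to 176 and 180 CPM (0.60 ± 0.06 on the log2 scale, SE, edgeR adjusted p = 1.36e-14). At the receptor, Shc1 (0.54) and Sos1 (0.34), which lead to RAS, and the phosphatase gene Ptpn11 (0.18) rose, and the adaptors Grb2 (-0.34) and Gab1 (-0.28) and the insulin receptor phosphatase gene Ptpn1 (-0.20) fell. Shc1, a docking protein that works in parallel to the IRS proteins, went from 154 and 154 to 214 and 234 CPM (edgeR adjusted p = 2.07e-13). The 3 others tested here (Grb10, Sh2b1 and Sh2b2) were not called.

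In the PI3K and AKT group 3 genes rose, 1 fell and 8 were not called. The risers were the regulatory subunits of PI3K, Pik3r1 (0.57), Pik3r3 (0.53) and Pik3r2 (0.16), and the catalytic subunit Pik3cd fell (-0.59 ± 0.09, SE). Pik3cd went from 41.0 and 38.3 to 26.2 and 26.6 CPM (edgeR adjusted p = 1.93e-07). The Pik3r1 value depended on untreated replicate 2, without which it was 0.36. Akt1 (-0.15), Akt2 (0.07), Pik3ca (0.06), Pik3cb (0.08) and Pdpk1 (0.04) were not called. Among the FOXO factors Foxo3 rose from 88.1 and 83.5 to 117 and 114 CPM (0.42 ± 0.06, SE, edgeR adjusted p = 1.24e-08), and Foxo1 (0.20), Foxo4 (0.07) and Foxo6 (-0.09) were not called. The IGF2 mRNA-binding proteins split, with Igf2bp3 higher (0.41), Igf2bp2 lower (-0.47) and Igf2bp1 not called (0.10). DESeq2 did not call Ptpn1 (-0.21), Ptpn11 (0.18), Pik3r2 (0.16) or Pik3r3 (0.53), and the Ptpn1, Ptpn11 and Pik3r2 calls were also lost without degron replicate 1 (-0.18, 0.16 and 0.11). That of Ptpn1 was lost too without untreated replicate 2 (-0.18) or degron replicate 2 (-0.22), and that of Pik3r2 without untreated replicate 1 (0.12). With no low-count filter the Ptpn1 and Pik3r2 calls were lost (-0.20 and 0.17), and with library sizes alone that of Ptpn1 (-0.17). Igf2bp3 shares 1529 of 8159 exonic bases with Malsu1 on the opposite strand and Pik3r3 shares 1289 of 5300 with Gm49337 on the same strand, so both values are uncertain. Some genes that were not called here were called in other settings: Akt1 with RLE scaling (-0.16), upper quartile scaling (-0.16), the minimum of 1 CPM (-0.16) and the replicate block (-0.15), Htra1 and Igf2bp1 with library sizes alone (0.50 and 0.13) and the block (0.47 and 0.10), Foxo1 with the block (0.20) and without untreated replicate 2 (0.27) or degron replicate 2 (0.32), Igf2bp1 without untreated replicate 2 (0.16) and Phlpp2 without untreated replicate 1 (0.27).

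**Figure D4:**
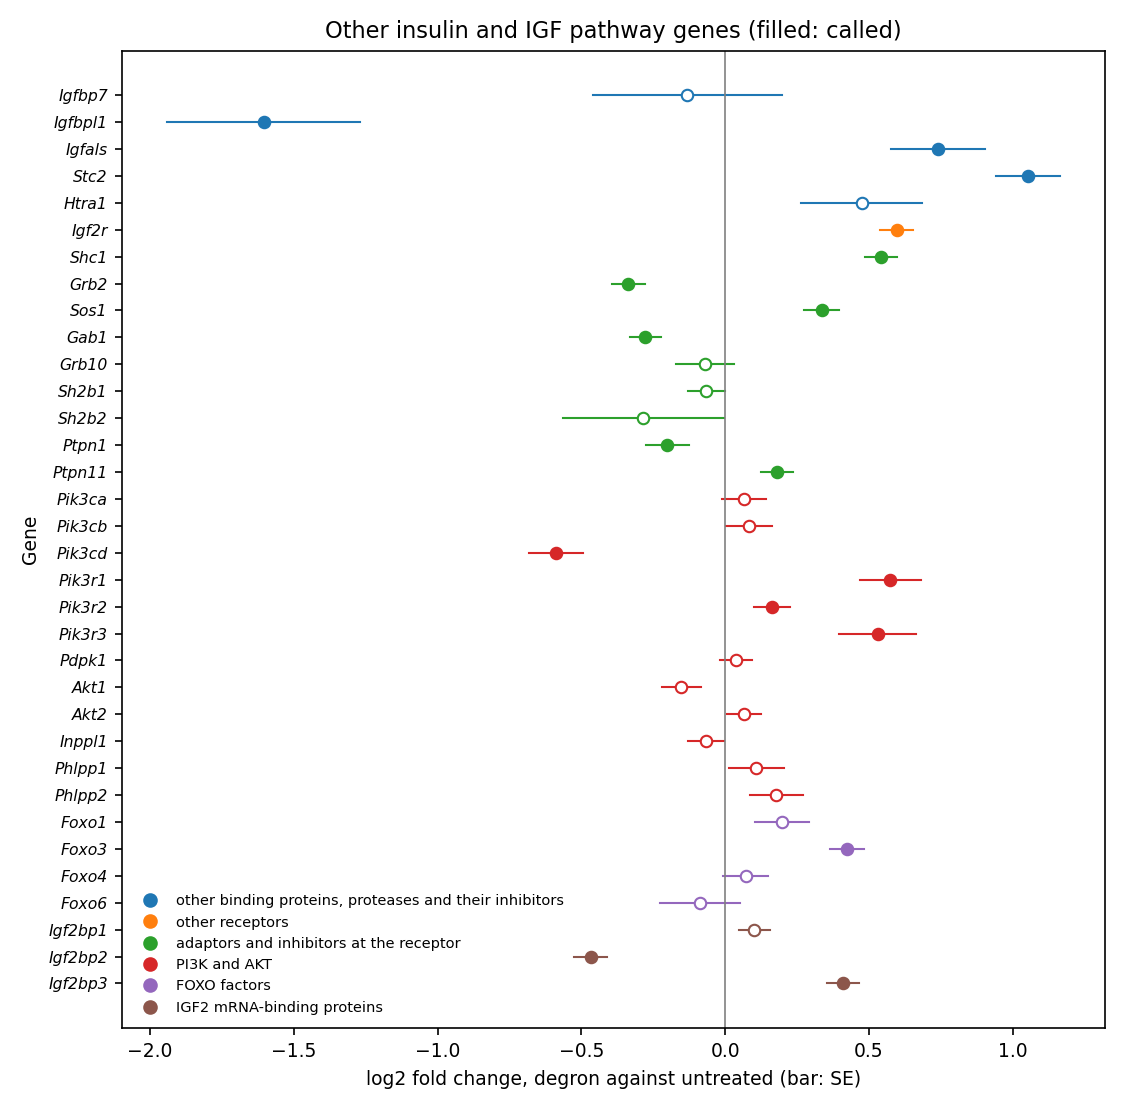
Log2 fold change (degron against untreated) with its SE for the 34 tested pathway genes outside the members, by role. Filled circles are called by edgeR, 11 to the right and 6 to the left, with Igfbpl1 lowest at -1.61 and Stc2 highest at 1.05.

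Genes beside the members were also examined. Within 250 kb on each side of a member lay 25 tested genes, Igfbp2 and Igfbp5 included as neighbours of each other, and 14 of them were called, beside 43.8% of all tested genes. Igfbp2 and Igfbp5 are among the 14 and were chosen with their falls known, so nothing is read from this number. Around Igfbp4, 9 neighbours were tested, of which Tns4 (-1.88), Cdc6 (-0.56) and Top2a (-0.29) fell and Casc3 (0.17) rose. Tns4, whose protein links integrins to actin and whose gene lies 11286 bases from Igfbp4, fell from a mean of 1.93 CPM to 0.506 CPM. The SE of its log2 fold change was 0.48, and Tns4 passed the low-count filter through the untreated libraries alone. Rpl37a, a ribosomal protein gene beside Igfbp2 and Igfbp5, fell (-0.43), and so did Adcy1 beside Igfbp3 (-0.42), Synm beside Igf1r (-1.06) and the collagen IV gene Col4a1 beside Irs2 (-0.76). Near Insr, Zfp358 (0.82) and the lysosomal channel gene Mcoln1 (0.55) rose, as did Rhbdd1 beside Irs1 (0.44).

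The genes whose pattern was most like that of Igfbp5, the member with the largest fitted change in size (a place that Igfbp4 takes in some settings, as given above), were ranked by the Euclidean distance between log2 CPM values (prior count 2), centred on their mean over the 4 libraries, among 9484 protein-coding genes with a mean of 10 CPM or more in the higher of the 2 groups. These 5 reached that minimum in untreated cells alone. The nearest 5 were Ndrg2 (distance 0.402), Bnip3 (0.513), A2m (0.536), Igfbp4 (0.573) and Otx2 (0.654). Bnip3, which shares 504 exonic bases with Gm45507 on the opposite strand (0 counts), encodes a mitophagy receptor, A2m a protease inhibitor of plasma and Otx2 a homeobox transcription factor. Their log2 fold changes were -2.18 for Ndrg2, -2.88 for Bnip3, -2.72 for A2m, -2.88 for Igfbp4 and -1.92 for Otx2, against -2.98 for Igfbp5. The prior count draws low values such as those of Igfbp5 together, so a small distance does not mean an equal fold change.

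The libraries held 10604451 and 9431642 counts in the untreated group and 9055498 and 8344408 in the degron group. Zbtb21 mRNA itself was 61.7 and 56.9 CPM in untreated and 130 and 133 CPM in degron libraries, and because the degron acts on the protein this does not check the labels. The libraries of a pair were not copies of each other: the mean chi-square per gene was 1.98 in the untreated and 1.54 in the degron pair. The labels do not say whether the 2 libraries of a group came from separate cultures, so a p-value here reflects the spread of these libraries alone, and that spread may be technical. An exact permutation test of 2 against 2 cannot give a two-sided p below 0.333.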

How the data were processed

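RNA-seq of 2 untreated and 2 degron libraries was used. Raw counts per gene were deposited by the authors, who trimmed reads with cutadapt 2.6, mapped them to mm10 with STAR 2.7.6a, kept primary alignments without PCR duplicates and counted GENCODE release 25 genes with featureCounts 1.6.3, as the submitters' processing notes and the methods of the study state. No source used here gives the strand setting, and genes that overlap others are uncertain. The labels name a poly(A) library kit, the study's methods another RNA library kit. Duplicate removal can lower the counts of abundant genes such as Igfbp2.

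Of 55401 gene IDs, 55141 matched GENCODE release 21 (GRCm38), from which symbols, positions and exonic lengths were taken, and 260 did not. Columns were matched to samples by title, with 0 left over. The quasi-likelihood test of edgeR 4.0.16 (R 4.3.3; low counts removed by filterByExpr, TMM scaling, group as the single term) was run on the counts of 13916 genes, at a Benjamini-Hochberg adjusted p under 0.05. The SE is the log2 fold change divided by the square root of F. The procedure was tested on simulated counts. Alternatives were DESeq2 1.42.0, limma-voom (limma 3.58.1), other scalings and filters, the replicate block, protein-coding genes alone and each library left out. A lone library of a group was assumed to vary like the other group.

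The members and lists were chosen with earlier results of these data known. Some genes of the pathway list are not reported here and were left out of its counts. All 9 members were named, with every called pathway gene, uncalled ones in roles of 4 or fewer tested genes, the 5 genes most like the member of largest change, and at most 2 called neighbours per member. Other genes named (uncalled genes of larger roles, fibroblast markers, further neighbours of Igfbp4) and the E-box and shared stretch were chosen after their values were seen. Promoter sequences are from RefSeq (GRCm38.p6), in which 8 of 9 members matched, and motifs were searched on both strands.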

Additional observations from a re-analysis of the deposited data

How the results depend on the processing

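Over the alternatives the 8 tested members gave 101 values, of which 95 kept direction and side of the threshold, among them every value of Igfbp2 (-0.98 to -0.89), Igfbp4 (-3.05 to -2.73) and Igfbp5 (-3.25 to -2.72). DESeq2 called 2924 genes in all against 6093 by edgeR (22% of the genes to which it gave an adjusted p), and did not call Insr (0.26, adjusted p = 0.205, against 0.00341 to 0.205 over all settings) or Irs2 (0.54, adjusted p = 0.0541, against 1.29e-05 to 0.0794). With 1 library left out, Insr ranged from 0.22 to 0.31, Irs2 from 0.34 to 0.72 and, never called, Igf1r from -0.017 to 0.18, Igfbp3 from 0.15 to 0.52 and Irs1 from 0.14 to 0.52. The uncalled Grb10, Inppl1 and Foxo6 crossed 0 when a degron library was left out, with ranges of -0.14 to 0.011, -0.14 to 0.0057 and -0.22 to 0.030. The cause was not tested.

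With 100 kb on each side 6 of 9 tested neighbours were called, and with 500 kb 24 of 46, beside 43.8% of all tested genes. Igfbp2 and Igfbp5 are again among the called neighbours. With the longest transcript as length, Igf1r (2.83 CPM per kilobase) stood above Irs2 (2.50) in untreated cells, and in degron cells Insr (4.49) stood above Irs2 (3.64) and Igf1r (3.00) above Igfbp3 (2.86). The replicate block gave 6645 calls, changed no call of a member and called 14 pathway genes higher and 7 lower (DESeq2 8 and 5). Same-numbered libraries deviated together with r = 0.044 across 13916 genes, which does not show that numbers pair the samples. Igfbp5 and Irs1 had no value under the minimum of 1 CPM in both groups, DESeq2 gave Irs1 no adjusted p, and Irs4 was not tested. Depth limits Igfbp5, Irs1 and Irs4, where 3 counts are 0.284 to 0.358 CPM.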
